A study of Mus musculus with 4 samples.

Results

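The genes described here encode the SNARE proteins and their closest partners, the machinery that fuses granules and other vesicles with their target membrane. They were measured by RNA sequencing of bone marrow neutrophils from mice, taken by cell sorting for strong Gr1 and 7/4 staining and strong side scatter. The genotypes compared were Srf KO with 2 samples and WT with 2 samples, set in a study of serum response factor (SRF) in neutrophil migration. The deletion strategy, strain, age and sex of the mice, and whether each sample was 1 animal, are not given in the sources used here. Members were the genes whose symbol starts with Vamp, Stx or Stxbp followed by a digit, starts with Unc13, or is Snap23, Snap25, Snap29 or Snap47, provided the authors had tested them. That gave 29 members among 12634 tested genes. A further 8 genes fit by name but had too few reads to be tested, so the 29 are not all genes of these families.

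SNARE proteins work by zippering. A VAMP on the vesicle pairs with a syntaxin and a SNAP protein on the target membrane, and the bundle of helices they form pulls both membranes together. Munc18 proteins, encoded by Stxbp genes, hold syntaxins ready, and Munc13 proteins, encoded by Unc13 genes, prime the complex for fusion. In neutrophils this step releases granule contents and brings receptors stored in granule membranes to the cell surface.

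Each level is in FPKM (mapped fragments scaled to transcript length and sequencing depth), the authors' 1 pooled value per genotype, so no spread between samples can be given and read depth is unknown. Folds are log2 of Srf KO over WT, and the ± after a fold is its size divided by the authors' test statistic, a standard error on their model. A gene is called when the adjusted p in the authors' deposited table, from the Cufflinks difference test over all tested genes, is at most 0.05. Nothing in the labels says whether samples of a genotype came from separate animals, so these p-values may reflect technical spread only. Srf itself stood at 0.439 FPKM in Srf KO and 13.7 FPKM in WT (log2 fold -4.97 ± 0.27), in the direction of the labels.

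Of the 29 members, 6 were called lower in Srf KO and 1 was called higher. Over all tested genes 35.5% were called, 17.8% lower and 17.7% higher, against 20.7% of members lower and 3.45% higher. The share of members called lower was therefore near the background. In bulk samples such as these, fewer cells of a type and less RNA per cell cannot be told apart. The median log2 fold was -0.23 over the members and 0.08 over all tested genes. Of the genes that reached 1 FPKM in either genotype 37.7% were called, and their median log2 fold was 0.00, against -0.25 for members at that level. Of those 26 members, 6 were called lower and 0 higher by the authors' deposited table, against 20.6% and 17.1% of all tested genes at that level.

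**Figure D1:**
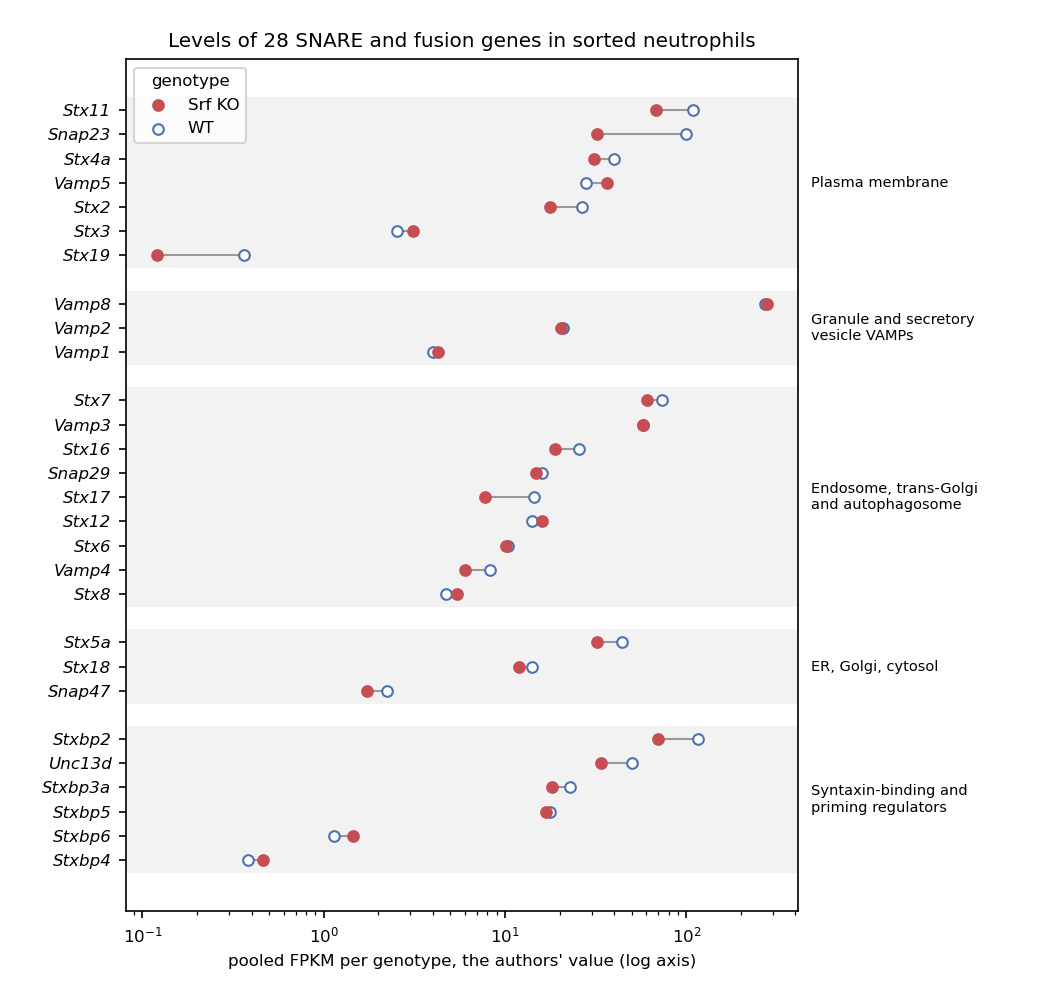
Pooled FPKM (log axis) of 28 of the 29 members in Srf KO (filled) and WT (open), grouped by the membrane or role each protein is known for. Vamp8 is highest in both genotypes, and the widest gap between genotypes among genes above 1 FPKM is that of Snap23, at 32.1 FPKM in Srf KO and 99.5 FPKM in WT.

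Of the 7 tested plasma membrane members 3 were called lower and 0 higher, against 17.8% and 17.7% of all tested genes. Snap23 was the most reduced of all called members. This gene encodes SNAP-23, the widely expressed relative of neuronal SNAP-25, which contributes a pair of helices to exocytic SNARE complexes at the plasma membrane. Snap23 (ENSMUSG00000027287.14, protein coding, mm10 chromosome 2, 120567671 to 120600722, plus strand) had 32.1 FPKM in Srf KO and 99.5 FPKM in WT. The log2 fold was -1.63 ± 0.19, a 3.10-fold lower level, and the authors' deposited table lists its adjusted p as 0. Only 2.14% of tested genes had a lower fold, and Snap23 was the one member called lower by 2-fold or more, a call made for 6.45% of all tested genes, while 7.13% were called higher by as much. It ranked 9 among the 29 members by level in Srf KO and 4 in WT.

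The 250 bases before the annotated start of Snap23 are shown because this gene changed most (RefSeq, GRCm38.p6, chr2:120567421-120567670, plus strand). They were searched for the CArG box, the motif SRF binds, which reads alike on both strands, and none was found.
Snap23: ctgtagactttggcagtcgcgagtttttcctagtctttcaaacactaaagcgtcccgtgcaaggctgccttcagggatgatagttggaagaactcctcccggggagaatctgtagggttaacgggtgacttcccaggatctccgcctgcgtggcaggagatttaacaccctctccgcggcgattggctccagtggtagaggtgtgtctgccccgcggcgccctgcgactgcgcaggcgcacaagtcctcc
Promoter windows of 300 bases (250 before and 50 after the start) were at hand for 25 of the 29 members, 30 windows in all. A CArG box was found in 1 of them, that of Vamp1, or 3.33%, against 1.63% of all 32851 promoter windows. Windows of 5 of the 6 members called lower held 0, and their best matches had 2 or 3 mismatches. The absence of these letters from such a short window says nothing about SRF binding elsewhere.

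Of the plasma membrane syntaxin genes, Stx11 and Stx2 were called lower. Stx11 (mm10 chromosome 10, 12939983 to 12964259, minus strand) encodes a syntaxin of blood cells that is mutated in an inherited human failure of lymphocyte granule release. It had 68.1 FPKM in Srf KO and 109 FPKM in WT (log2 fold -0.68 ± 0.20, adjusted p = 0.00288 in the authors' deposited table). Stx2 (mm10 chromosome 5, 128984561 to 129008564, minus strand), a plasma membrane syntaxin, had 17.7 FPKM in Srf KO and 26.7 FPKM in WT (log2 fold -0.59 ± 0.19, adjusted p = 0.00876 in the authors' deposited table). The fall of Snap23 was larger, and its fold minus that of Stx11 was -0.95 ± 0.27 log2 units (95% interval -1.48 to -0.43).

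The other plasma membrane members were not called. Stx4a, the syntaxin that pairs with SNAP-23 in many cells, had 31.1 FPKM in Srf KO and 39.7 FPKM in WT (log2 fold -0.35 ± 0.20, adjusted p = 0.145 in the authors' deposited table). After adjustment for transcript length Stx4a passed the threshold, with a log2 fold of -0.62 and an adjusted p of 0.00784. Vamp5, a VAMP first known from muscle, stood at 36.5 FPKM in Srf KO and 27.8 FPKM in WT (0.39 ± 0.20, adjusted p = 0.107 in the authors' deposited table). Stx3, a syntaxin of apical plasma membranes, had 3.12 FPKM in Srf KO and 2.53 FPKM in WT. The epithelial gene Stx19 was barely detected, at 0.120 FPKM in Srf KO and 0.364 FPKM in WT, with an implied standard error of 1.57. Its locus in the table also holds Arl13b. The neuronal members Snap25 and Stx1a were not tested and lay at or below 0.130 FPKM in both genotypes.

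Of the 3 tested VAMP genes of granules and secretory vesicles 0 were called, against 35.5% of all tested genes. Of these VAMP genes 0 had an unadjusted p under 0.05 in the authors' deposited table. Their log2 folds ran from -0.04 to 0.09. Vamp8, which serves granule secretion in platelets and mast cells and fusion between endosomes, was the most abundant of all members, with 280.3 FPKM in Srf KO and 273 FPKM in WT (log2 fold 0.04 ± 0.18, adjusted p = 0.901 in the authors' deposited table). Its 95% interval, -0.32 to 0.40, leaves room for a change of moderate size in either direction. Vamp2, the synaptobrevin of synaptic vesicles, found in human neutrophils on tertiary granules and secretory vesicles, had 20.38 FPKM in Srf KO and 20.97 FPKM in WT (-0.04 ± 0.20). Vamp1 had 4.27 FPKM in Srf KO and 4.03 FPKM in WT (0.09 ± 0.27). Vamp8 made up 69.2% of the summed VAMP level in Srf KO and 69.7% in WT. The fold of Snap23 minus that of Vamp8 was -1.67 ± 0.26 log2 units (95% interval -2.18 to -1.16).

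Vamp7, the VAMP of late endosomes and of several neutrophil granule types, was listed at 0 FPKM in both genotypes and not tested. Its row sits on a sequence assigned to chromosome X without a position in the mm10 build, so this 0 may not be a level.

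Of the 9 tested members of endosomes, the trans-Golgi and autophagosomes, 1 was called lower and 0 higher, against 17.8% and 17.7% of all tested genes. The median log2 fold of these members was -0.11. The one called was Stx17 (mm10 chromosome 4, 48124919 to 48186506, plus strand), the syntaxin that joins autophagosomes to lysosomes. It had 7.74 FPKM in Srf KO and 14.5 FPKM in WT (log2 fold -0.90 ± 0.19, adjusted p = 2.74e-05 in the authors' deposited table). Its known partners in that fusion step were not called. Snap29 had 14.8 FPKM in Srf KO and 16.0 FPKM in WT (-0.11 ± 0.26, at a locus shared with Pi4ka and Serpind1), and Vamp8 is given above.

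The recycling and late endosome members were not called. Vamp3 (cellubrevin) of recycling endosomes had 57.5 FPKM in Srf KO and 58.0 FPKM in WT (log2 fold -0.01 ± 0.18). Stx12, also of recycling endosomes, had 16.0 FPKM in Srf KO and 14.2 FPKM in WT (0.17 ± 0.20). Late endosomal Stx7 had 60.8 FPKM in Srf KO and 73.2 FPKM in WT (-0.27 ± 0.18), and its partner Stx8 had 5.40 FPKM in Srf KO and 4.74 FPKM in WT (0.19 ± 0.21). The largest of these folds, that of Stx7, was not called (adjusted p = 0.249 in the authors' deposited table).

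Trans-Golgi members were not called either. Vamp4 had 5.98 FPKM in Srf KO and 8.24 FPKM in WT (log2 fold -0.46 ± 0.22, adjusted p = 0.0854 in the authors' deposited table). Vamp4 passed the threshold when the folds of the authors' deposited table were centred on the median of all genes (adjusted p = 0.0411, normal tail of the Cufflinks statistic) or adjusted for transcript length (0.0415). Stx16 had 18.9 FPKM in Srf KO and 25.6 FPKM in WT (-0.43 ± 0.24), and Stx6 had 10.1 FPKM in Srf KO and 10.4 FPKM in WT (-0.05 ± 0.21).

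Of the 3 members of the early secretory pathway 0 were called, against 35.5% of all tested genes. Among them 1, Stx5a, had an unadjusted p under 0.05 in the authors' deposited table. The Golgi syntaxin gene Stx5a had 32.3 FPKM in Srf KO and 44.1 FPKM in WT (log2 fold -0.45 ± 0.19, adjusted p = 0.0552 in the authors' deposited table). It passed when the folds of the authors' deposited table were centred (adjusted p = 0.0220, normal tail of the Cufflinks statistic), adjusted for length (0.0121) or limited to genes at 5 FPKM or more (0.0478). Stx18 of the endoplasmic reticulum had 11.9 FPKM in Srf KO and 14.0 FPKM in WT (-0.23 ± 0.22). Snap47 had 1.73 FPKM in Srf KO and 2.23 FPKM in WT (-0.36 ± 0.29).

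Of the 7 tested syntaxin-binding and priming regulators 2 were called lower and 1 higher, against 17.8% and 17.7% of all tested genes. Stxbp2 (mm10 chromosome 8, 3631160 to 3643644, plus strand) encodes Munc18-2, the partner of syntaxin 11. It had 69.8 FPKM in Srf KO and 115 FPKM in WT (log2 fold -0.73 ± 0.18, adjusted p = 0.000495 in the authors' deposited table). Unc13d (mm10 chromosome 11, 116062096 to 116077961, minus strand) encodes Munc13-4, which Rab27a recruits to granules before fusion. It had 33.7 FPKM in Srf KO and 49.9 FPKM in WT (-0.56 ± 0.18, adjusted p = 0.00846 in the authors' deposited table). In humans STX11, STXBP2 and UNC13D are each mutated in a form of familial hemophagocytic lymphohistiocytosis, in which cytotoxic lymphocytes fail to release granules. All of these genes, grouped here after their values were seen, were lower in Srf KO by 1.48 to 1.65-fold.

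Stxbp3a, encoding the Munc18c partner of syntaxin 4, had 18.2 FPKM in Srf KO and 22.7 FPKM in WT (-0.32 ± 0.19, not called). The fold of Stxbp2 differed from that of Stxbp3a by -0.41 ± 0.27 (95% interval -0.93 to 0.11), so the folds of these genes are not told apart. Stxbp5 (tomosyn, an inhibitor of SNARE assembly) had 16.9 FPKM in Srf KO and 17.8 FPKM in WT (-0.07 ± 0.18). Stxbp6 and Stxbp4 had 1.45 and 0.463 FPKM in Srf KO, against 1.14 and 0.384 FPKM in WT, and were not called. Unc13a, Unc13b, Unc13c and Stxbp5l were not tested and stood at 0.0319 FPKM or less.

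**Figure D2:**
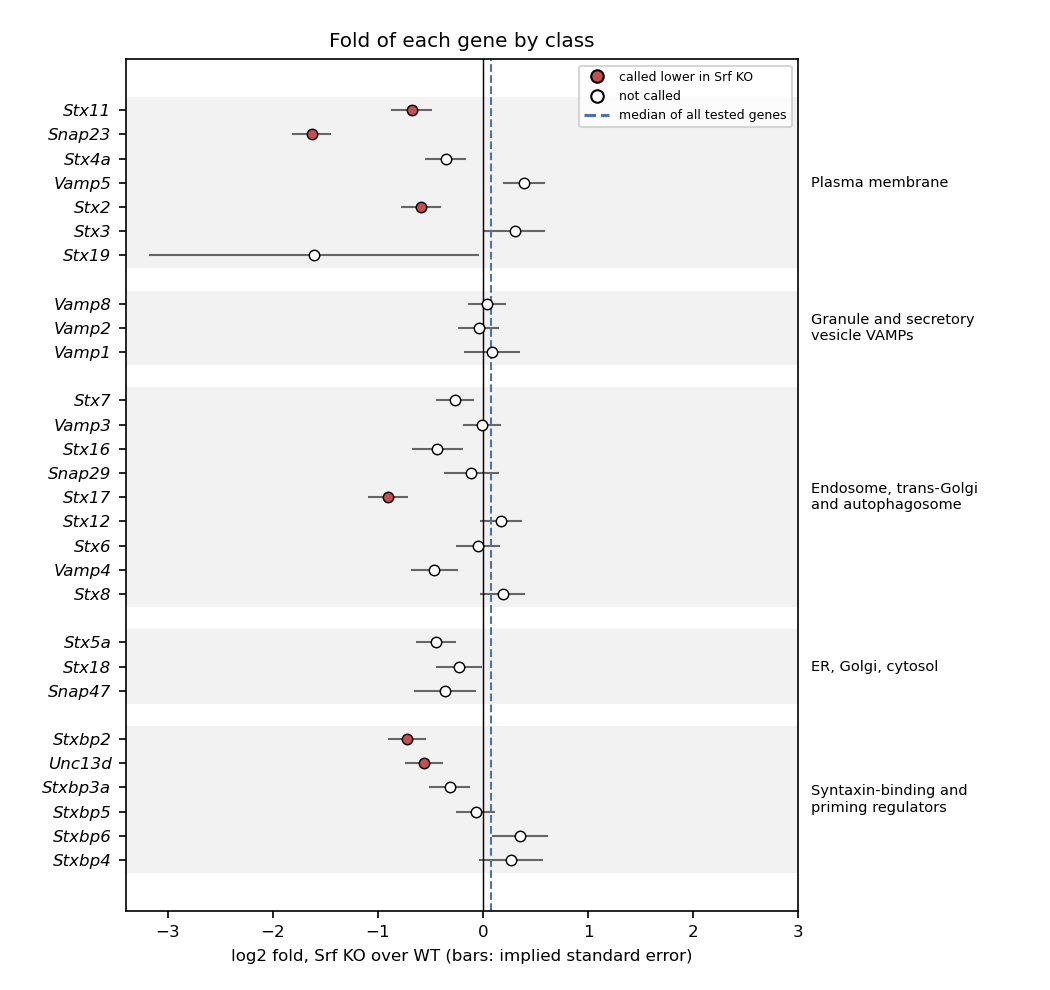
Log2 fold (Srf KO over WT) of each member with its implied standard error, in the same order as the levels. The dashed line is the median of all tested genes (0.08). It shows 28 of the 29 members, filled points mark the 6 called lower, and the 3 granule and vesicle VAMPs lie between -0.04 and 0.09.

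Set side by side, plasma membrane members had a median log2 fold of -0.59 (7 tested, 3 called lower), endosomal members -0.11 (9 tested, 1 lower) and granule and vesicle VAMPs 0.04 (3 tested, 0 called). Of all tested genes 17.8% were called lower and 17.7% higher. Limited to genes at 1 FPKM or more, which leaves out Stx19, the plasma membrane median was -0.47. Over the alternatives tried, the plasma membrane median lay between -0.67 and -0.34 (-0.34 on the log2(FPKM + 1) scale), the endosomal median between -0.19 and -0.05, and the granule median between -0.22 (adjusted for transcript length) and 0.04. The summed level of the plasma membrane members was 189 FPKM in Srf KO and 306 FPKM in WT, a log2 ratio of -0.69. Summed over all tested genes, this ratio was -0.11. Snap23 alone accounted for 32.1 FPKM of the plasma membrane sum in Srf KO and 99.5 FPKM in WT. For the granule and vesicle VAMPs the sums were 305 FPKM in Srf KO and 298 FPKM in WT, and for the endosomal members 197 FPKM in Srf KO and 225 FPKM in WT. The granule and vesicle sums were mostly Vamp8, with 280 FPKM in Srf KO and 273 FPKM in WT. The difference between classes was not tested, since genes are not replicates and each class holds few. Classes follow the main residence each protein is generally known for, and location in these neutrophils was not measured. Snap23, Stx11 and other members may therefore also serve granule or endosome membranes, so the medians do not show that granule fusion genes were unchanged. Within the SNAP family, Snap23 stood 2.17-fold above Snap29 in Srf KO and 6.23-fold above it in WT. The difference between the folds of these genes, Snap23 minus Snap29, was -1.52 ± 0.32 (95% interval -2.15 to -0.89). These intervals treat the errors of both genes as independent, and the pairs were picked after their values were seen, from 9 such differences computed.

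Among isoforms, 40 transcripts of members were tested, of which 7 were called lower and 1 higher. Over all tested isoforms 27.2% were called, 14.0% lower and 13.1% higher. Of 31 tested groups of transcripts sharing a start site (TSS), 6 were called lower and 1 higher, against 31.2% called over all TSS groups, 16.1% lower and 15.1% higher. Of 35 tested coding sequences, 8 were called lower and 1 higher, against 30.2% called over all coding sequences, 15.8% lower and 14.4% higher. These values come from the same reads as the gene values and are no second measurement. The main transcript of Snap23, NM_009222, was called lower, with 26.1 FPKM in Srf KO and 92.8 FPKM in WT (log2 fold -1.83 ± 0.23, adjusted p = 5.6e-13 in the authors' deposited table). A second transcript with the same coding sequence, NM_001177793, stood at 5.76 FPKM in Srf KO and 5.70 FPKM in WT, with a standard error of 0.88. Its share of the gene was 17.9% in Srf KO and 5.73% in WT.

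Stx11 has 3 transcripts that share 1 start group and 1 coding sequence. NM_029075 had 11.7 FPKM in Srf KO and 53.5 FPKM in WT (log2 fold -2.20 ± 0.64, adjusted p = 0.00412 in the authors' deposited table). NM_001163591 had 55.1 FPKM in Srf KO and 47.1 FPKM in WT (0.23 ± 0.69, adjusted p = 0.876 in the authors' deposited table). NM_001163590 had 1.37 FPKM in Srf KO and 8.30 FPKM in WT (-2.60 ± 1.14, not called). How reads were split between such similar transcripts is an estimate by Cufflinks, and the difference between the folds of the transcripts was not tested.

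Stx16 was not called as a gene, but NM_001102423 was, with 2.22 FPKM in Srf KO and 6.77 FPKM in WT (log2 fold -1.61 ± 0.48, adjusted p = 0.00536 in the authors' deposited table). Its most abundant transcript, NM_001102425, had 10.6 FPKM in Srf KO and 9.07 FPKM in WT (0.23 ± 0.29).

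Vamp1 was not called as a gene, and its estimated split into transcripts was uncertain. NM_001080557 had 1.39 FPKM in Srf KO and 3.41 FPKM in WT, a log2 fold of -1.29 ± 0.52. Its adjusted p was 0.0504 in the isoform table and 0.0464 in the coding sequence table of the authors' deposited tables, the same p-value adjusted over different numbers of features. NM_009496 had 2.88 FPKM in Srf KO and 0.623 FPKM in WT, with a standard error of 2.85 that leaves its direction, and which transcript led in Srf KO, undetermined. The 2 transcripts share their first 339 coding bases and part in the last codons, which encode the end of the protein. Their coding ends without the stop codon (GENCODE M21, GRCm38, plus strand) are shown with the codons after the split in capitals. That of NM_009496 lies at chr6:125219613-125220063 and spans an intron, and that of NM_001080557 at chr6:125219613-125219648.
NM_009496: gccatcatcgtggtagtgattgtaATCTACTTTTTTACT
NM_001080557: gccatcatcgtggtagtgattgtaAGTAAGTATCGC
Vamp1 also holds the one CArG box found among the members' promoters, in capitals in the 250 bases before its start (RefSeq, GRCm38.p6, chr6:125215331-125215580, plus strand). The match begins 229 bases before the start, and it is a description of the sequence, not a tested site.
Vamp1: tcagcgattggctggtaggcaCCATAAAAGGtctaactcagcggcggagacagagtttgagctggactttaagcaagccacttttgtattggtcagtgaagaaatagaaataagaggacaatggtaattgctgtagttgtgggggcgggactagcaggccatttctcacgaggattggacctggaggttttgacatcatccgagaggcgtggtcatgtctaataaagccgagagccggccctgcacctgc

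**Figure D3:**
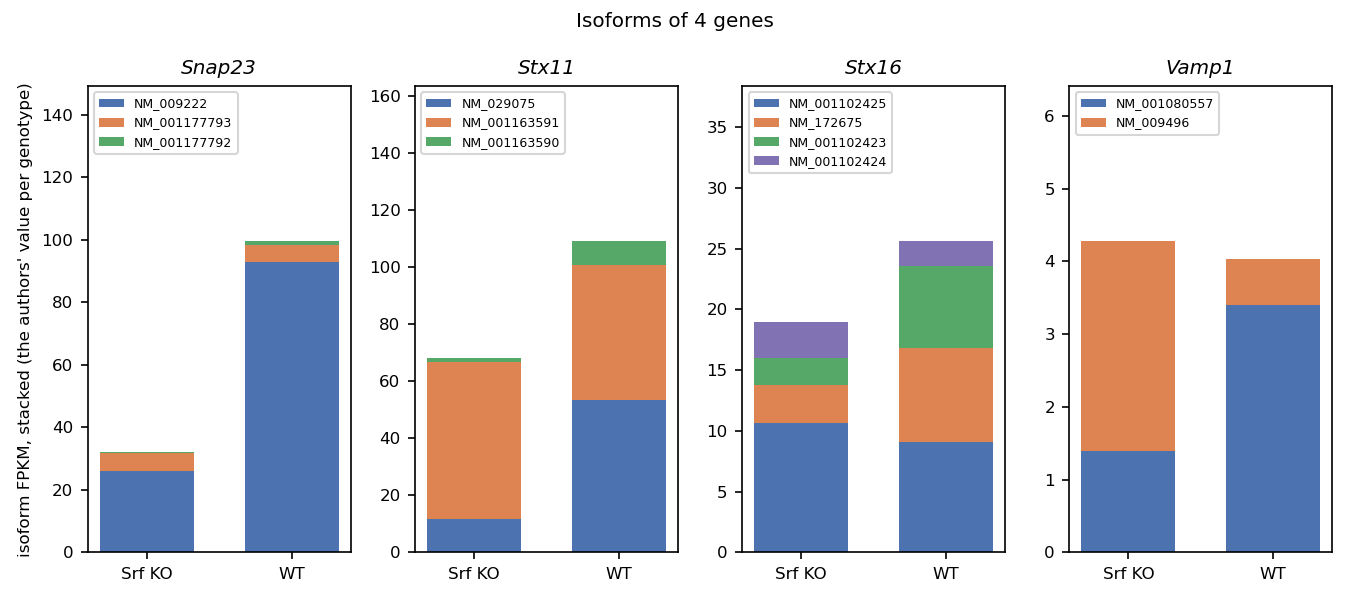
Stacked isoform FPKM, the authors' value per genotype, for 4 members in Srf KO (left bar) and WT (right bar). The NM_009222 part of Snap23 is 26.1 FPKM in Srf KO and 92.8 FPKM in WT, while the total of Vamp1 is 4.27 FPKM in Srf KO and 4.03 FPKM in WT, with a split in which the fold of NM_009496 has a standard error of 2.85.

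Further genes of the pathway, 49 of them tested, included 8 called lower and 6 called higher, or 28.6% called against 35.5% of all tested genes. The exocyst, the complex that tethers vesicles to the plasma membrane before SNAREs engage, had 4 of 9 subunit genes called lower and 0 higher, with a median log2 fold of -0.41, where 17.8% of all tested genes were called lower. Exoc6b had 1.48 FPKM in Srf KO and 2.97 FPKM in WT (log2 fold -1.0 ± 0.24, adjusted p = 0.000208 in the authors' deposited table). Exoc2 had 15.4 FPKM in Srf KO and 24.1 FPKM in WT (-0.65 ± 0.19, adjusted p = 0.00302 in the authors' deposited table). Exoc7 had 7.52 FPKM in Srf KO and 11.7 FPKM in WT (-0.64 ± 0.21), and the fourth gene called lower was Exoc3.

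Rab27 and its effectors gave 6 tested genes, with 2 called lower and 3 higher, against 17.8% and 17.7% of all tested genes. Rab27a, the GTPase that brings Munc13-4 to granules, had 77.0 FPKM in Srf KO and 138 FPKM in WT (log2 fold -0.84 ± 0.18, adjusted p = 4.39e-05 in the authors' deposited table). Its effector gene Sytl1 had 5.32 FPKM in Srf KO and 8.86 FPKM in WT (-0.73 ± 0.23). The genes called higher, Rab27b, Sytl2 and Sytl4, were all under 0.5 FPKM in both genotypes.

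Of 12 other SNARE genes, 1 was called lower and 2 higher, against 17.8% and 17.7% of all tested genes. Bet1l, a Golgi SNARE, had 17.4 FPKM in Srf KO and 24.3 FPKM in WT (log2 fold -0.48 ± 0.20). Bet1, its relative of ER-to-Golgi traffic, had 12.3 FPKM in Srf KO and 7.88 FPKM in WT (0.64 ± 0.23), and Sec22a had 1.30 FPKM in Srf KO and 0.773 FPKM in WT (0.75 ± 0.29). The NSF cycle takes spent SNARE complexes apart. Of its 3 tested genes 1 was called lower and 0 higher, against 17.8% and 17.7% of all tested genes. That gene, Napa, encoding alpha-SNAP, had 19.9 FPKM in Srf KO and 27.5 FPKM in WT (-0.47 ± 0.19). Of 12 tested genes of other SM proteins and of the tethers of endosomes and lysosomes 0 were called, against 35.5% of all tested genes. Among them 3 (Scfd2, Vps11 and Vps18) had an unadjusted p under 0.05 in the authors' deposited table. Of 7 tested calcium sensor and complexin genes 0 were called lower and 1 higher, against 17.8% and 17.7% of all tested genes. The gene called was Cplx2, a complexin, at 3.05 FPKM in Srf KO and 1.796 FPKM in WT (0.77 ± 0.25).

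**Figure D4:**
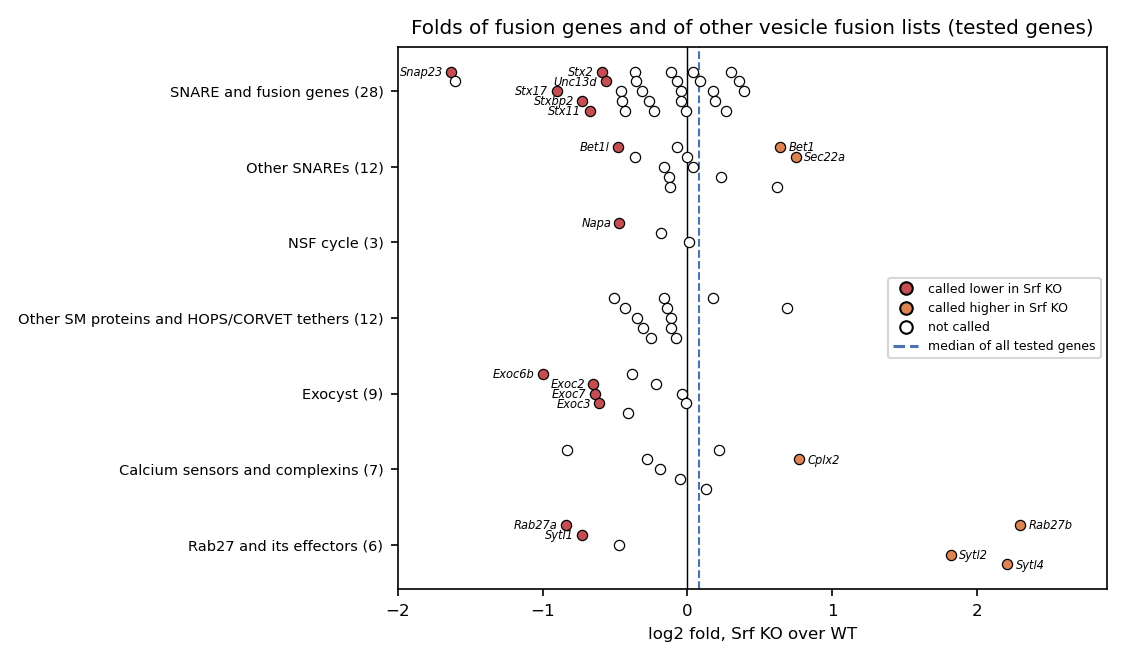
Log2 folds (Srf KO over WT) of 28 of the 29 members and of the tested genes of 6 other vesicle fusion lists, with called genes filled and named. The 4 exocyst genes called lower lie between -1.0 and -0.61, and the dashed line is the median of all tested genes (0.08).

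Markers of other blood cells moved with genotype beside these results. T and NK cell genes were higher in 11 of 12 markers and lower in 0, with a summed level of 121 FPKM in Srf KO and 51.9 FPKM in WT. The platelet lineage had 8 of 12 markers called higher (67.9 FPKM in Srf KO, 23.6 FPKM in WT), and Gp6 was at 0 in WT. Of 11 eosinophil, basophil and mast cell markers 9 were called higher (364 FPKM in Srf KO, 178 FPKM in WT). Erythroid markers were called higher in 5 of 8 (252 FPKM in Srf KO, 166 FPKM in WT). B cell markers were called higher in 4 of 8 (186 FPKM in Srf KO, 123 FPKM in WT). Of 11 monocyte and macrophage markers 7 were called higher and 3 lower (1760 FPKM in Srf KO, 1353 FPKM in WT). Of 8 tested neutrophil markers 1 (Mpo) was called higher and 5 lower, and 5 more had too many reads to be tested. The tested ones summed to 20501 FPKM in Srf KO and 31317 FPKM in WT. Most of that sum was Retnlg, which was not called, with 17117 FPKM in Srf KO and 24805 FPKM in WT. Many of these cells use the same fusion genes, and the part of the markers' change in the folds of Snap23, Stx11, Stxbp2, Unc13d and the other members was not tested.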

How the data were processed

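RNA of sorted mouse neutrophils was sequenced from 2 Srf KO and 2 WT samples using a TruSeq RNA v2 kit, according to the labels' protocols. This chemistry loses strand, so reads of overlapping genes mix. The submitters' processing notes name Cufflinks 2.0.0, TopHat2 2.0.0, CASAVA 1.8.1 and mm10, with no role or setting. The 4 tables (genes, isoforms, TSS groups, coding sequences) hold FPKM as the authors deposited it, 1 pooled value per genotype. They also hold the authors' log2 fold (WT over KO), a deposited score that is the test statistic, and the authors' deposited p-value and q-value. The q-value was checked to be a Benjamini-Hochberg adjustment over features of status OK in each table.

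The log2 fold of Srf KO over WT was computed from FPKM without a pseudocount, and the implied standard error is its size over the size of the statistic (0.18 to 1.57 over members). With pooled values no test beyond the authors' was made for the main result. Retests after centring or length adjustment used the normal tail with that standard error over all genes. The centring retest was tried on simulated folds, and the length adjustment was not. Transcript lengths came from GENCODE M21 for 97.7% of genes with a fold. Starts are printed counting from 1.

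Members, classes and lists were chosen with earlier results of these data known. The values of some members are not reported here, though every count, sum and median includes them where they were tested. Otherwise values are given for every called member, every member at 1 FPKM or more, and up to 3 called genes per direction and list at that level. Exoc3, Rab27b, Sytl2, Sytl4, Scfd2, Vps11 and Vps18 stand outside this rule and were named after their values were seen. The Unc13 genes were taken as members although their name carries no further digit. Without them 5 members were called lower and 1 higher, and the median log2 fold of members was -0.17. The median of the syntaxin-binding and priming regulators was then 0.10, against -0.07 with them. Promoters were matched to RefSeq by symbol, with older symbols accepted on the same chromosome. Scripts ran in Python 3.11.15 with matplotlib 3.10.9, scipy 1.17.1, pandas 2.3.3 and numpy 2.4.6.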

Additional observations from a re-analysis of the deposited data

How the results depend on the processing

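The 6 members called lower and 1 called higher were recounted under 13 alternatives. With a 2-fold minimum 1 was lower (Snap23). The other counts lay between 5 and 9, with 9 after adjustment for transcript length (18.4% of all genes lower), 8 after centring (20.4%), 8 at a q-value of at most 0.10 (20.6%) and 7 at 5 FPKM or more (26.4%). Limiting the table to genes at 1 or at 5 FPKM or more left 0 members called higher, against 17.4% and 16.2% of all genes. The median log2 fold of members ranged from -0.33 to -0.07. Leaving out Snap23, an alternative chosen after seeing the data, left 5 lower and 1 higher.

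Only centring, length adjustment and the isoform and TSS group tables could turn the sign of a single fold. They did so in 7 of 108 values, for genes not called in the gene table apart from Stx11. Vamp8 had -0.04 after centring and -0.33 after length adjustment, Stx6 0.08 and Stxbp5 0.05 after length adjustment. In the isoform with the highest FPKM, Stx11 had 0.23, Stx16 0.23 and Vamp1 -1.29. The cause was not tested. No analysis without each sample was possible because the tables pool the samples. No paired analysis was possible either, since the values are pooled and the sample titles name no pairs. Depth is unknown.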
